A study of Homo sapiens with 4 samples.

Results

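NR1D1, the REV-ERB alpha repressor of the circadian clock, was 1.87-fold higher and the clock repressor PER1 1.44-fold higher in glioblastoma cells given the small molecule YZ129, while for the other 8 of 10 clock genes the authors' deposited table shows no change past the threshold. The 10 genes were taken by name: they are the rows of that table whose gene symbol is CLOCK, ARNTL, PER1, PER2, PER3, CRY1, CRY2, NR1D1, NR1D2 or DBP. All 10 were among its 19749 gene symbols, and all 10 were among the 14812 genes that had an adjusted p and are called tested genes here. Poly(A)-selected RNA was sequenced from U87 cells, an established human glioblastoma line grown in serum-containing medium, in 2 libraries from the control group given DMSO and 2 libraries from the group given 5 µM YZ129 for 24 h. The series title connects the search for such inhibitors with the HSP90, calcineurin and NFAT pathway, in which a chaperone and a calcium-dependent phosphatase act upstream of NFAT transcription factors. The labels give neither the hour of collection nor a step that would set the cells' clocks to a common phase, so each value is from a single time point in cultures of unknown phase. Nor do they tell whether the 2 libraries per group are from separate cultures; the p-values then measure only the spread between libraries, which may be technical.

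The deposited data are the result of the authors' own comparison and give, for each gene, a mean normalized level, a log2 fold change and its error (SE, standard error), a p-value and an adjusted p, with no value per library. Values are therefore printed as log2 fold change ± SE, and whether libraries of the groups overlap cannot be said. The smallest mean levels showed that the mean was taken over 8 libraries, of which 4 took part in this comparison. Whether the remaining libraries also entered the estimate of spread behind the SEs and p-values is not known. The direction is not stated in the table, and its name lists DMSO first. A positive value was read as higher with YZ129 from 22 heat shock and cochaperone genes, cytosolic except the mitochondrial HSPD1 and HSPE1, neither of which passed. Of the 22, 11 passed with a positive sign and 0 with a negative sign in a table with DESeq2 columns. The counts were 13 and 1 at an unadjusted p under 0.05 of the same test. This reading was chosen because HSP90 inhibitors are known to induce cytosolic heat shock genes. Under the opposite reading every rise below becomes a fall. An adjusted p under 0.05 is called passing the test.

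The circadian clock is a feedback loop of transcription that runs in most cells. CLOCK and ARNTL (also named BMAL1) bind E-box sequences and switch on the PER and CRY genes, whose proteins return to the nucleus and repress that pair. An interlocked loop adds the nuclear receptors NR1D1 and NR1D2 (REV-ERB alpha and beta), which repress ARNTL through ROR and REV-ERB elements, and DBP carries the rhythm to further genes through D-boxes. In glioblastoma stem cells CLOCK and ARNTL have been described as needed for growth.

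Of the 10 clock genes 2 passed, both higher, and 0 passed as lower in the authors' deposited table with DESeq2 columns. At an unadjusted p under 0.05 the counts were 3 and 0, and 1549 and 2145 among all 14812 tested genes. Among all tested genes 12.9% passed, 5.24% as higher and 7.64% as lower, and with the median of all tested genes subtracted the split of calls moved from 776 higher and 1132 lower to 954 and 884. At an adjusted p under 0.01, which 7.72% of all tested genes met, NR1D1 remained and PER1 did not. No clock gene had both an adjusted p under 0.05 and a log2 fold change of at least 1 in size, against 2.79% of all tested genes. The median log2 fold change of the 10 genes was 0.07, that of all tested genes was -0.05, and 5 of the 10 values were positive. By sign alone, PER1 and PER3 lay above 0 and PER2 below, CRY1 above and CRY2 below, NR1D1 above and NR1D2 below. Of these genes only NR1D1 and PER1 passed, so the signs of the others were not established at the threshold. That of NR1D2 turned positive when the median of genes of similar level was subtracted.

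**Figure D1:**
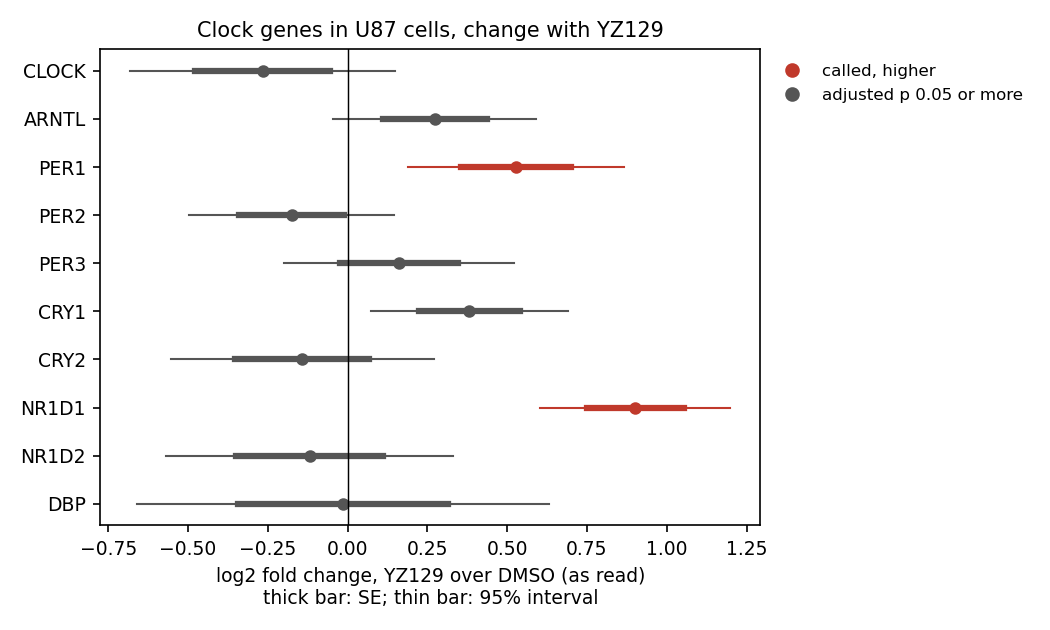
Log2 fold change of each of the 10 clock genes (x axis, log2 units, YZ129 over DMSO as read), with the SE as a thick bar and the 95% normal interval as a thin bar. NR1D1 and PER1, in red, passed an adjusted p of 0.05; the interval of CRY1 also lies above 0, from 0.07 to 0.69, but its adjusted p of 0.094 did not pass.

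Neither activator passed. For ARNTL, a partner with which both CLOCK and NPAS2 bind DNA, the authors' deposited table gives 0.27 ± 0.16 (adjusted p = 0.29), with a 95% interval from -0.05 to 0.59. CLOCK, the histone acetyltransferase subunit of the pair, had -0.27 ± 0.21 (adjusted p = 0.46) in the authors' deposited table, with an interval from -0.68 to 0.15. The intervals allow ARNTL up to 1.51 times the control level and CLOCK down to 0.624 times. Values of opposite sign for the 2 subunits are not shown to differ, since the table allows no test between genes.

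PER1 was the 1 of 5 PER and CRY repressors that passed. The authors' deposited table lists PER1, which cells also induce acutely through calcium and cAMP signals and through glucocorticoids, at 0.53 ± 0.17 (adjusted p = 0.023), a rise of 44.1% with an interval from 0.19 to 0.87. Its paralogue PER2, the PER protein whose stability sets the pace of the human clock, stood at -0.18 ± 0.16 (adjusted p = 0.55) in the authors' deposited table, with an interval from -0.50 to 0.15. PER3, the least essential of the PER genes for rhythm in mice, had 0.16 ± 0.18 (adjusted p = 0.64) in the authors' deposited table. The intervals of PER1 and PER2 do not touch, but the difference between them was not tested. Tested genes were split by mean level into 10 groups of equal size, called level deciles here. The change of PER1 was larger in size than that of 87.9% of the 1481 genes in its level decile, and that of PER2 larger than 42.7% of the same genes.

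Promoter sequence upstream of a RefSeq start of PER1 and of PER2 (GRCh38.p14, 5′ to 3′ on the strand of the gene) is shown because the 2 paralogues are textbook targets of CLOCK and ARNTL, and PER1 passed while PER2 did not. Capitals mark exact matches, on either strand, to the E-box CACGTG, the E'-box CACGTT, the D-boxes TTATGCAA and TTATGTAA, and the ROR and REV-ERB hexamer AGGTCA.
PER1, chr17:8152436-8152654, minus strand: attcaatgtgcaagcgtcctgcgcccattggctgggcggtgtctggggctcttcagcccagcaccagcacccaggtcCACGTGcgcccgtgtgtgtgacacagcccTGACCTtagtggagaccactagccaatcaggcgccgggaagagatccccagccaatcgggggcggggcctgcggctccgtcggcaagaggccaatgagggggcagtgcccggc
PER2, chr2:238288611-238288860, minus strand: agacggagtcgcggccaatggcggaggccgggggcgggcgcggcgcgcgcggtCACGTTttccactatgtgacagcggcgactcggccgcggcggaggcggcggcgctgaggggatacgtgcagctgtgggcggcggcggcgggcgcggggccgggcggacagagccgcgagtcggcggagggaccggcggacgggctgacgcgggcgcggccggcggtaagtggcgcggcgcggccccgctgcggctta
The PER1 stretch holds an E-box 173 to 168 bases upstream of its start and the hexamer, as TGACCT on this strand, 144 to 139 bases upstream. A D-box match 30 to 23 bases upstream of PER1 lies past the point where an annotated exon begins and is not printed. PER2 has an E'-box 197 to 192 bases upstream and no other match in these 250 bases. None of the motifs overlaps another here, and a match describes letters, not binding.

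The cryptochromes, which are the stronger repressors of CLOCK and ARNTL, did not pass. CRY1 came closest of all members that did not pass, with 0.38 ± 0.16 (unadjusted p = 0.016, adjusted p = 0.094) in the authors' deposited table. Subtracting the median of the genes in the same level decile gave CRY1 a value of 0.46 and an adjusted p of 0.037, and subtracting the median of all tested genes gave 0.43 and 0.051, so its call rests on the centring. CRY2 had -0.14 ± 0.21 (adjusted p = 0.73) in the authors' deposited table, with an interval from -0.55 to 0.27.

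NR1D1 had the largest change of the 10. The authors' deposited table gives NR1D1 0.90 ± 0.15 (adjusted p = 2.2e-07), with an interval from 0.60 to 1.20, that is from 1.52 to 2.30 times the control level. Its change was larger in size than that of 98.6% of the 1481 genes in its level decile, and 3.88% of all tested genes had a more positive value. NR1D2, which binds the same element and is abundant in the table with a mean level of 6228, stood in the authors' deposited table at -0.12 ± 0.23 (adjusted p = 0.80). Its interval runs from -0.57 to 0.33 and ends below the lower end of that of NR1D1, but the difference was not tested. The sign of NR1D2 turned to 0.04 when the median of its level group was subtracted.

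NR1D1 lies tail to tail with THRA, the thyroid hormone receptor alpha gene, on the opposite strand. In the GENCODE annotation, on GRCh38, 263 exon bases are shared, 9.49% of those of NR1D1. The strand setting of the read counting is among the details not given in the sources used here, so reads from the shared stretch cannot be assigned to 1 gene with certainty. THRA itself had -0.11 ± 0.17 (adjusted p = 0.74) in the authors' deposited table. The part of THRA reads in the value of NR1D1 was not tested.

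The sequence upstream of NR1D1, the member with the largest change, and of its paralogue NR1D2 is shown with the same motifs in capitals.
NR1D1, chr17:40100726-40100839, minus strand: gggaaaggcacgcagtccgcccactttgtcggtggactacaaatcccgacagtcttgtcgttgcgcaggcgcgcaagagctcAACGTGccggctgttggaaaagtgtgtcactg
NR1D2, chr3:23945871-23946120, plus strand: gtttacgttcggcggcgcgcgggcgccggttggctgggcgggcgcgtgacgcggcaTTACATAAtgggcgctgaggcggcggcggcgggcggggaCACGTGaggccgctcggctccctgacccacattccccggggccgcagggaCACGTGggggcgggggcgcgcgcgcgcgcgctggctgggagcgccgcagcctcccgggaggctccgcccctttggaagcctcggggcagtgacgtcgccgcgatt
NR1D1 has an E'-box, as AACGTG on this strand, 168 to 163 bases upstream of its RefSeq start. Its printed stretch ends where an annotated exon begins, so the 136 bases nearest the RefSeq start are not printed. The NR1D2 stretch, upstream of the second of its RefSeq starts, holds E-boxes at 155 to 150 and at 105 to 100 bases and a D-box, as TTACATAA, at 194 to 187 bases. Over the 250 upstream bases of 15 RefSeq starts of the 10 genes, the E-box was present for 2 genes, the E'-box for 5, a D-box for 3 and the hexamer for 2. Counted per start, these were 2, 5, 3 and 3 of the 15. Of 35116 RefSeq promoters of the same length, 6.34% held an E-box, 4.55% an E'-box, 1.61% a D-box and 12.1% the hexamer. Within these 250 bases PER1, which passed, and NR1D2, which did not, were the 2 genes with an exact E-box. Sequence outside them was not searched.

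DBP, a direct target of CLOCK and ARNTL whose messenger RNA swings widely in rhythmic tissues, was the least expressed member and showed no measurable change. The authors' deposited table gives DBP a mean level of 62.8 and -0.01 ± 0.33 (adjusted p = 0.99). The interval from -0.66 to 0.63 leaves room for a level between 0.633 and 1.55 times the control, so a change of the size seen for PER1 was not detectable for DBP. The deposited value and SE are moderated towards 0, so for a gene with few reads this range may be too narrow. Of its exon bases 23.0% are shared with SPHK2 on the opposite strand in the GENCODE annotation, and SPHK2 had 0.16 ± 0.17 (adjusted p = 0.62) in the authors' deposited table. With the median of all tested genes subtracted the sign of DBP turned, at 0.04.

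The overlapping genes of the other members gave no call either. PER3 shares 868 exon bases with UTS2 on the opposite strand, 13.4% of its own, and the authors' deposited table gives UTS2 a mean level of 5.53 without an adjusted p. TMEM165 (-0.17 ± 0.19), which overlaps CLOCK, and NKIRAS1 (0.22 ± 0.19), which overlaps NR1D2, share no exon base with them, and the authors' deposited table gives neither a call.

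Divided by the summed exon length of the GENCODE annotation, the 10 genes fell into a wide range of levels. Mean level per kb of exon, over the 8 libraries of both groups and of samples outside this comparison, was highest for NR1D1 (1251) and NR1D2 (1184), followed by CLOCK (502). CRY1 had 245 per kb, ARNTL 237, PER3 161, PER1 129, PER2 116 and CRY2 105, and DBP was last with 21.9. The spread over libraries is not in the table, so neighbours in this order, such as CRY1 and ARNTL or NR1D1 and NR1D2, cannot be ranked with certainty. The 2 genes that passed thus came from the top and from the lower part of this order.

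**Figure D2:**
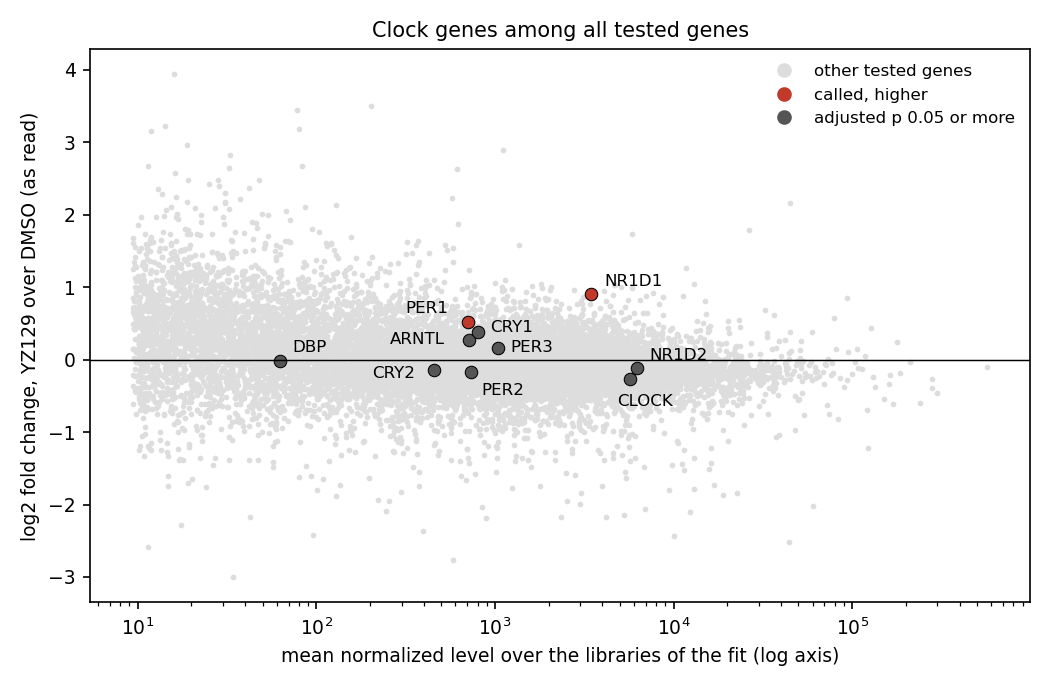
Mean normalized level over the libraries of the authors' fit (x axis, log scale) against log2 fold change (y axis, YZ129 over DMSO as read) for the 14812 tested genes in grey and the 10 clock genes as labelled points. NR1D1, at 0.90, stands at the upper edge of genes with a similar level; PER1, at 0.53, is nearer the bulk, and the 8 members in dark grey lie between -0.27 and 0.38.

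The fold changes of the members were not equally precise. NR1D1, CRY1, ARNTL, PER2 and PER1 had SEs from 0.15 to 0.17, while CLOCK and NR1D2 had 0.21 and 0.23 in the authors' deposited table although both are far more abundant than CRY1. The SE of CLOCK was larger than that of 92.9% of genes in its level decile, where the median SE was 0.15, and that of NR1D2 was larger than that of 96.6%. For DBP, an SE of 0.33 in the authors' deposited table was below the median of 0.37 for genes of its level.

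**Figure D3:**
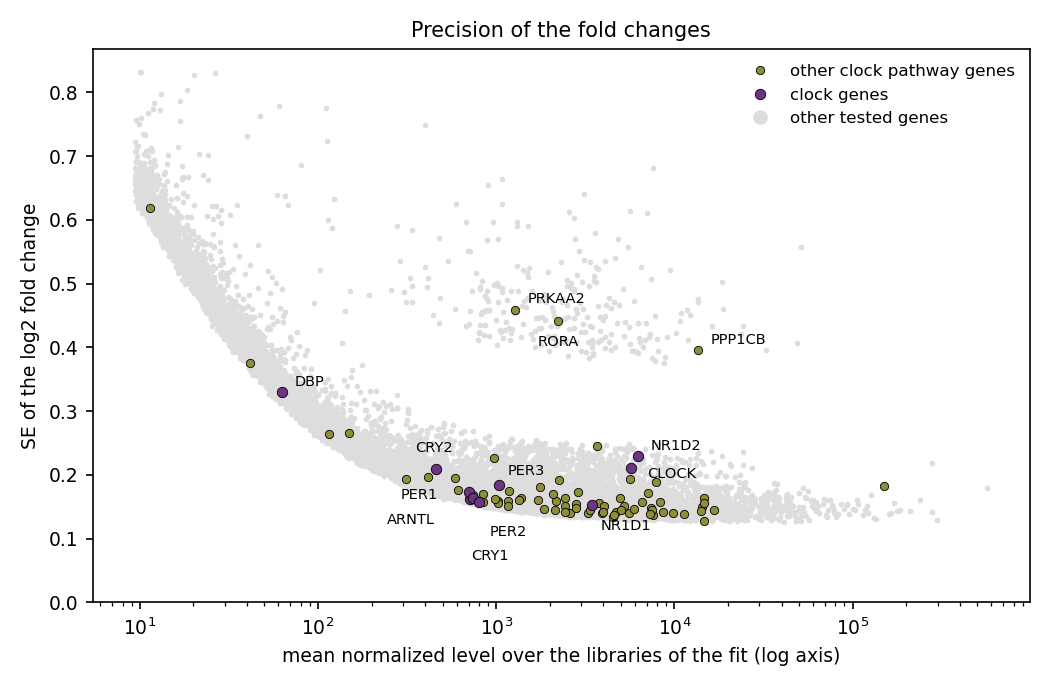
Mean normalized level (x axis, log scale) against the SE of the log2 fold change (y axis, log2 units) for all tested genes in grey, other clock pathway genes in olive and the 10 clock genes in purple. CLOCK (0.21) and NR1D2 (0.23) lie above most genes of their level, and RORA, PPP1CB and PRKAA2 lie in a separate band at 0.40 to 0.46.

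Transcription factors that work beside the 10 genes in the same loop were lower where they passed. Of 10 tested genes outside the members (paralogues of the activators, RORA and RORB, the D-box factors TEF, HLF and NFIL3, and E-box repressors) 5 fell and 0 rose by the authors' DESeq2-format test, with 5 and 0 at an unadjusted p under 0.05. Their median log2 fold change was -0.46, against -0.05 for all tested genes, of which 7.64% passed as lower and 5.24% as higher. The list was chosen with earlier results of these data known. BHLHE41 (DEC2), which represses CLOCK and ARNTL at E-boxes, had -1.13 ± 0.15 (adjusted p = 3.1e-11) in the authors' deposited table, 2.18-fold lower. Its relative BHLHE40 (DEC1) fell by 0.66 ± 0.14 (adjusted p = 7.5e-05) in the authors' deposited table. Both are also known targets of hypoxia-inducible factors. CIART, a further E-box repressor listed under its older symbol C1orf51, had -0.14 ± 0.20 (adjusted p = 0.71) in the authors' deposited table. NFIL3, which competes with DBP for D-boxes, fell by 0.67 ± 0.15 (adjusted p = 0.00017) in the authors' deposited table. TEF, a D-box activator related to DBP, had -0.24 ± 0.16 (adjusted p = 0.35) and HLF, another, had 0.90 ± 0.62 (adjusted p = 0.38) at a mean level of only 11.4 in the authors' deposited table.

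The paralogues of the activators both fell. ARNTL2, which can replace ARNTL, had -0.57 ± 0.16 (adjusted p = 0.0052) in the authors' deposited table. NPAS2, which can replace CLOCK, had -0.39 ± 0.14 (adjusted p = 0.047) there. Both calls were lost when the median of the same level decile was subtracted, with adjusted p of 0.072 for ARNTL2 and 0.23 for NPAS2, while BHLHE41, BHLHE40 and NFIL3 still passed. RORA and RORB, which activate ARNTL at the element that NR1D1 and NR1D2 use, did not pass: RORA had -0.54 ± 0.44 (adjusted p = 0.48) and RORB 0.42 ± 0.38 (adjusted p = 0.53) in the authors' deposited table.

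**Figure D4:**
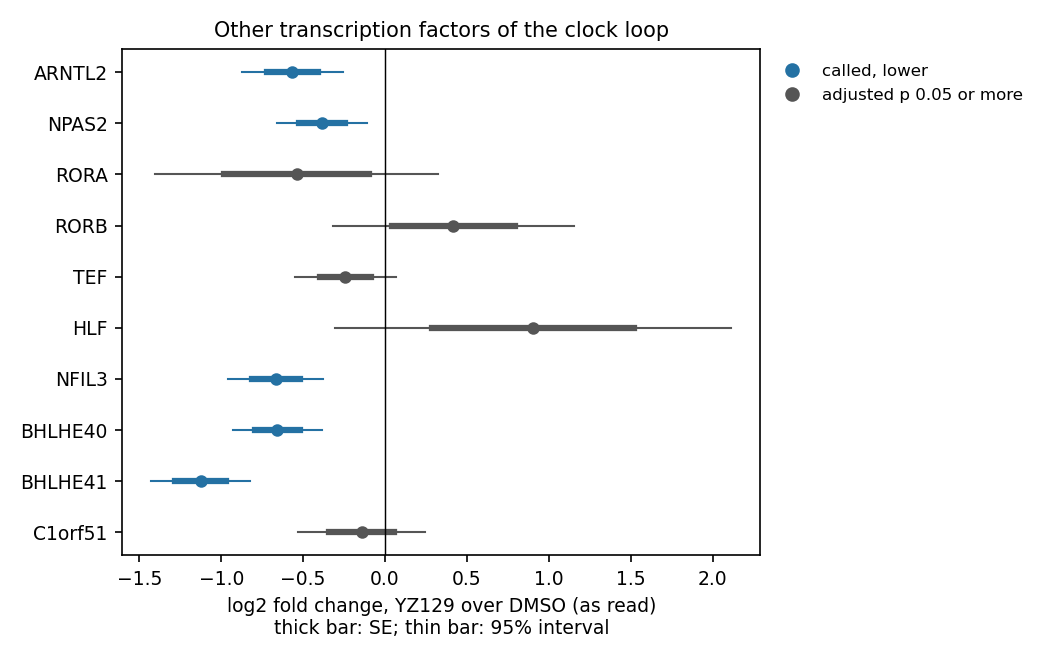
Log2 fold change (x axis, log2 units, YZ129 over DMSO as read) of 10 other transcription factors of the clock loop, with the SE as a thick bar and the 95% normal interval as a thin bar; C1orf51 is CIART. The 5 that passed, in blue, are all lower, from -0.39 for NPAS2 to -1.13 for BHLHE41, while the wide bars of HLF belong to a gene of low level.

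Genes that set the stability of clock proteins gave a single call, where 12.9% of all tested genes passed, 5.24% as higher and 7.64% as lower. Of 17 kinases and phosphatases that act on PER, CRY or ARNTL proteins 0 passed by the authors' DESeq2-format test, and 2 did at an unadjusted p under 0.05. The PER kinases CSNK1D (0.27 ± 0.15, adjusted p = 0.25) and CSNK1E (-0.24 ± 0.14, adjusted p = 0.29) had values of opposite sign in the authors' deposited table. Of 11 ubiquitin ligase subunits and deubiquitinases, 1 fell and 0 rose (1 and 1 at an unadjusted p under 0.05, DESeq2-format test). That gene was RBX1, the RING subunit that cullin ligases share, which the authors' deposited table puts at -0.44 ± 0.14 (adjusted p = 0.024), and its call was lost with centring on genes of its level (adjusted p = 0.13). Of 7 clock-associated proteins 0 passed (1 at an unadjusted p under 0.05, DESeq2-format test), among them TIMELESS with -0.26 ± 0.14 (adjusted p = 0.23) in the authors' deposited table.

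Co-regulators and output genes of the clock held rises and falls. Among 16 co-regulators 2 rose and 1 fell. PPARGC1A, a coactivator that works with RORs on ARNTL, had 1.08 ± 0.27 (adjusted p = 0.0010) at a mean level of 149 in the authors' deposited table. The acetyltransferase CREBBP had 0.61 ± 0.16 (adjusted p = 0.0023) and the histone methyltransferase EZH2 -0.47 ± 0.14 (adjusted p = 0.012) in the authors' deposited table. With centring on genes of its level the EZH2 call was lost (adjusted p = 0.064). Among 11 output genes 2 rose and 2 fell: GADD45A (0.66 ± 0.14) and TSC22D3 (0.52 ± 0.18), which glucocorticoids also induce, were higher, and the mitotic inhibitor kinase WEE1 (-0.59 ± 0.16) and the NAD salvage enzyme NAMPT (-0.55 ± 0.18) lower in the authors' deposited table. The NAMPT call was lost with the median of all tested genes subtracted (adjusted p = 0.052) and with centring on genes of its level (adjusted p = 0.17). Over all 71 tested genes of these lists 4 rose and 9 fell, 18.3% of them, against 12.9% of all tested genes (5.24% higher and 7.64% lower). With centring on genes of the same level 6 of these genes rose and 4 fell, against 920 and 805 of all tested genes.

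Of 9 glial markers with a row in the authors' deposited table, 7 were tested, and of these 4 fell and 0 rose. At an unadjusted p under 0.05 the counts were 4 and 1 by the DESeq2-format test. Among all tested genes 7.64% passed as lower and 5.24% as higher. SLC1A3, a glutamate transporter of astrocytes, had a mean level of 1891 and a log2 fold change of -1.03 ± 0.15 (adjusted p = 2.5e-10), and the intermediate filament gene NES had 909 and -0.59 ± 0.15 (adjusted p = 0.0020) in the authors' deposited table. The intermediate filament gene VIM had a mean level of 298885 and -0.46 ± 0.13 (adjusted p = 0.0066), and the hyaluronan receptor gene CD44 had 134994 and -0.38 ± 0.13 (adjusted p = 0.035) in the authors' deposited table. With centring on genes of the same level SLC1A3 and NES still passed, and VIM (adjusted p = 0.13) and CD44 (adjusted p = 0.32) did not. OLIG2 (96.2) was the 1 tested glial marker with a positive value, 0.82 ± 0.33 (unadjusted p = 0.012, adjusted p = 0.079) in the authors' deposited table. FABP7 (15.5) had -0.48 ± 0.56 (adjusted p = 0.64) there. GFAP (52.2) was low, and S100B (1.12) and SOX2 (0.851) were near the lowest levels in the authors' deposited table. The 12 markers of blood, epithelial, endothelial and neuronal cells had mean levels from 0.629 (CDH5) to 1627 (MAP2, a neuronal marker) there. The blood marker LCP1 had 1213 and the epithelial marker KRT8 93.7, the next highest (levels not per length). PTPRC, CDH1, CDH5 and RBFOX3 had the lowest levels among the 12, from 0.629 to 3.90. CD14, VWF, EPCAM, PECAM1 and SYP, markers of the same classes, were higher, from 11.99 (CD14) to 46.4 (SYP). Of the 8 tested, LCP1 alone passed, with 0.69 ± 0.15 (adjusted p = 0.00016) in the authors' deposited table. The part of these markers' changes in the values of the clock genes was not tested.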

How the data were processed

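The deposited file is a single table, made by the authors, of the comparison between DMSO and YZ129. Per the file headers its columns are those of a DESeq2 result. Build hg19 and the tools Cuffdiff, Cufflinks 2.2.1 and TopHat2 2.0.12 appear, without their roles, in the submitters' processing notes; counter, strand setting and annotation were not given in the sources used here. The deposited mean levels are averages of a normalized signal, reads over size factors. The authors' log2 fold changes and SEs are moderated towards 0, so changes of genes with few reads are understated. For all 19749 genes the authors' score was the log2 fold change over its SE, and recomputed Benjamini-Hochberg values matched the deposited adjusted p-value of 14812 genes. The other 4937 genes, with levels up to 9.43, had none. Depth in reads per library is not in the table.

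Intervals (95%, normal) were computed from the deposited SE with scipy 1.17.1, and 6 alternatives were run. Scripts were tested on simulated data. Exon overlaps and lengths came from GENCODE 29 and promoters from RefSeq, both on GRCh38, not the build of the reads. All 10 members, the called genes of the clock lists and their direct partners are named, except 2 that are not reported here. Members and lists were chosen with earlier results of these data known.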

Additional observations from a re-analysis of the deposited data

How the results depend on the processing

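Of the 6 alternatives, 4 change only the threshold or the adjustment and cannot change a sign. Under the other 2, which centre the fold changes, 17 of 20 values of clock genes kept their sign and their side of the threshold. At an adjusted p under 0.01, 1 clock gene passed, as higher, and PER1 (0.53) no longer did. Of the 71 other pathway genes 8 passed, 5 lower, where 7.72% of all tested genes passed. Requiring a log2 fold change of at least 1 in size left 0 clock genes, without PER1 (0.53) and NR1D1 (0.90). It left 2 other pathway genes, 1 higher and 1 lower, and 2.79% of all tested genes. With the median of all tested genes subtracted DBP turned to 0.037, and the calls of NAMPT (adjusted p = 0.052), NPAS2 (0.099) and RBX1 (0.055) were lost. Then 6 other pathway genes were higher and 6 lower, against 954 and 884 of all tested genes. With the median of the same level decile subtracted CRY1 passed at 0.46 and NR1D2 turned to 0.037. Other pathway genes were then 6 higher and 4 lower, without ARNTL2, EZH2, NAMPT, NPAS2 and RBX1, against 920 and 805 of all tested genes. The decile medians ran from 0.32 in the lowest decile to -0.16 in the highest. Adjusting over every row, or over levels of at least 100 (which leaves out DBP), changed no call of a clock gene. Adjusting over every row ended the call of NPAS2 (adjusted p = 0.062). No paired analysis was possible because the table has no values per library, and for the same reason no library could be left out.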

Other observations

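Among the 7377 tested genes whose mean level reached 1000, 197 (2.67%) had an SE of at least 0.376, and no SE lay between 0.257 and 0.376. None of these 197 was called in the authors' deposited table with DESeq2 columns (0 at an adjusted p under 0.05, 4 at an unadjusted p under 0.05). They include the clock pathway genes RORA, PPP1CB and PRKAA2, whose log2 fold changes of -0.54, -0.51 and -0.33 in the authors' deposited table have wider intervals than most genes of their level. The cause of the gap was not tested, since the table has no values per library.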
